A study of Mus musculus with 2 samples.

Results

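Immature neutrophils of the spleen were selected on their UMI counts, as cell barcodes with at least 20 UMIs of *S100a8* plus *S100a9*, at least 10 UMIs of *Camp*, *Ngp* and *Ltf* together, fewer than 5 UMIs of *Mpo*, *Elane* and *Prtn3* together, and 0 UMIs of *Cd3e*, *Cd79a* and *Csf1r*. A UMI (unique molecular identifier) stands for 1 captured RNA molecule. In total 304 of 23397 barcodes of the first of 2 deposited sequencing runs met this rule (43965 barcodes in both runs), 107 from PEP-WT mice and 197 from PEP-619WW mice. They are described beside 603 barcodes called mature neutrophils (351 PEP-WT and 252 PEP-619WW), which passed the same limits but held fewer than 10 UMIs of *Camp*, *Ngp* and *Ltf*.

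Both groups were C57BL/6 mice given 1000000 PFU of LCMV-cl13 intravenously. This lymphocytic choriomeningitis virus strain sets up a lasting infection, and spleens were taken on day 8. PEP-WT mice carried the wild type *Ptpn22* gene. PEP-619WW mice were homozygous for a CRISPR/Cas9 edit that replaces arginine by tryptophan at residue 619 of its product PEP, a tyrosine phosphatase of immune cells, in every cell of the body. The study used mice of both sexes, 6 to 12 weeks old, and for this assay cells of 4 to 5 spleens of each genotype, matched for age and sex, were mixed, sorted as live CD45+ cells and run in the 10x Genomics 3' assay. The cell numbers in the study's methods are those of the other deposited run, in which no barcode met the rule, so this account of the mice, infection and sort holds for the run used here only if both came from the same material, which no source states. Each genotype has 1 library in the run, no test was possible, and all intervals given are 95% intervals, exact except for differences of shares, that cover counting error only. The sample labels also name liver, a human T cell line and tumor infiltrating cells, but the hepatocyte markers (*Alb*, *Apoa1*, *Ttr*, *Serpina1a*, *Fgb*) were near 0 in these libraries, and UMIs of at least 3 of 5 B cell markers were present in 52.2% (PEP-WT) and 42.7% (PEP-619WW) of barcodes. In the other run the B cell shares were 0.0210% and 5.83%. There 2.61% and 0.227% of barcodes held at least 3 melanocyte markers, against 0% in the run used here. The origin of this difference in content was not tested.

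Neutrophils mature in the bone marrow from dividing progenitors. As they do so they fill successive sets of granules: primary granules with myeloperoxidase and elastase in promyelocytes, secondary granules with lactoferrin, the cathelicidin *Camp* and neutrophilic granule protein *Ngp* in myelocytes and metamyelocytes, and tertiary granules with gelatinase shortly before release. Granule genes are switched off as the cells mature, while chemokine receptors and cytokine genes come on. The mRNA of secondary granule proteins thus marks cells that lie mostly in the marrow and can also be found in the spleen.

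The rule fixed high *S100a8*, *S100a9* and granule UMIs, and these levels are given only as a description. *Ngp* was found in every immature barcode, with 6 to 533 UMIs and a median of 58 in PEP-WT, and 5 to 682 UMIs with a median of 86 in PEP-619WW. The share with a *Camp* UMI was 89.7% in PEP-WT and 84.8% in PEP-619WW. *Ltf*, which encodes lactoferrin, had a UMI in 77.6% and 70.1% of them. In B cells (at least 3 UMIs of *Cd79a*), where these genes should be silent, an *Ngp* UMI was found in 0.988% of PEP-WT barcodes at a median depth of 2712.5 UMIs and in 5.25% of PEP-619WW barcodes at 3444 UMIs, a higher background in the PEP-619WW library. Its part in the number of barcodes that passed the rule was not tested.

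*Olfm4*, olfactomedin 4, marks a subset of neutrophils and was not used by the rule. It had a UMI in 5 of 107 immature barcodes of PEP-WT (4.67%, interval 1.53 to 10.6%) and in 11 of 197 of PEP-619WW (5.58%, 2.82 to 9.77%), and the intervals overlap. With each barcode thinned to 1000 UMIs the shares were 2.86% and 5.26%. In mature neutrophils the shares were 0.570% and 2.38%, and 0.617% and 0.461% when thinned. In B cells they were 0.0143% and 0.0614%. The marker thus labelled few of the barcodes, and the other 3 of the 4 markers given for this cell type were those of the rule itself. PEP-619WW barcodes with an *Olfm4* UMI held 0 UMIs of the proliferation gene *Mki67*, as did the 5 of PEP-WT. Of all immature barcodes only 15.9% in PEP-WT and 9.14% in PEP-619WW held an *Mki67* UMI, so these few barcodes cannot show a difference.

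Genes that the rule left aside placed the barcodes in the neutrophil line. *Lcn2* (lipocalin 2, a secondary granule protein that binds siderophores) had a UMI in 99.1% of PEP-WT and 99.5% of PEP-619WW immature barcodes. *Ly6g*, the surface antigen used to stain mouse neutrophils, had one in 84.1% and 80.2%, against 0.200% and 0.491% of B cells. Of 6 granulocyte progenitor markers the rule itself limited *Mpo*, *Elane* and *Prtn3*. Of the other three, *Ctsg* and *Cd34* each had 0 UMIs in PEP-WT and 1 in PEP-619WW, and *Prss57* had 4 and 13 UMIs. Monocyte or macrophage markers summed to 22.3 and 19.3 UMIs per 1000000 (CPM), with *Csf1r* at 0 by rule and also *F13a1* at 0 in PEP-WT and *Cx3cr1* at 0 in PEP-619WW.

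The label of the mature class held less well, which touches each comparison with it. Its monocyte or macrophage markers summed to 783 CPM in PEP-WT and 583 CPM in PEP-619WW, T cell markers to 266 and 373 CPM, and in PEP-WT the basophil genes *Mcpt8* and *Prss34* reached 76.8 and 125 CPM. Mature barcodes were also shallower, at a median depth of 1944 (PEP-WT) and 2193.5 UMIs (PEP-619WW), where immature barcodes had 4547 and 5122. The whole libraries held 77916082 UMIs in PEP-WT and 56745578 UMIs in PEP-619WW, and the immature barcodes 493744 and 1085670 UMIs. The libraries shared 39 barcode sequences, and no barcode was called immature in both.

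Sequences upstream of 5 genes are shown for the 2 programs on which the results below turn. These are the secondary granule program that defines the cells and the interferon program, which was lower in the PEP-619WW library. They were picked with their matches known, so their matches are no support for either motif. *Ngp* and *Ltf* (with *Camp*, also on chromosome 9) are read with the core of the site bound by C/EBP factors, TTNNGNAA on either strand, because *Cebpe*, the C/EBP factor of granulocyte maturation, was among the genes higher in immature barcodes. *Isg15*, *Ifit1* and *Ifit3* are read with the core of the interferon-stimulated response element, 2 copies of GAAA with 2 bases of any kind between them, on either strand. Each line is 150 bases of RefSeq GRCm38.p6 sequence before the earlier of the starts that RefSeq and GENCODE give the gene, read along the gene's strand, with matches in capitals.
Ngp, chr9:110419597-110419746, plus strand: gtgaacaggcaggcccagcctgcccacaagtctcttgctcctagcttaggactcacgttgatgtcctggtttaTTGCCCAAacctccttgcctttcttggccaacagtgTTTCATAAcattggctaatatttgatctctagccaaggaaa
Ltf, chr9:111019121-111019270, plus strand: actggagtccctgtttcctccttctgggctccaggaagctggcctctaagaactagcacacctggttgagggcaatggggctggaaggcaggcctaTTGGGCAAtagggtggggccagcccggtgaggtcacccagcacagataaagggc
Isg15, chr4:156200819-156200968, minus strand: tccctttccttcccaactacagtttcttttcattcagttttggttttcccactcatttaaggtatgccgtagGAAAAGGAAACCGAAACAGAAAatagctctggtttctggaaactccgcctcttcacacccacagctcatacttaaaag
Ifit1, chr19:34640721-34640870, plus strand: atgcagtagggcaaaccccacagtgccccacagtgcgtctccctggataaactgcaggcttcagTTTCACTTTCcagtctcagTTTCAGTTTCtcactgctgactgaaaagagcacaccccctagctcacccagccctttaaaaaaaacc
Ifit3, chr19:34583379-34583528, plus strand: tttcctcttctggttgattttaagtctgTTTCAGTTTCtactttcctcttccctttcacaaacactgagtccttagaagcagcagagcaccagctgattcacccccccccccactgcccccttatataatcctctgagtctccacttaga

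The C/EBP core occurred 2 times before *Ngp* and 1 time before *Ltf*, and it is common: 22.7% of 32851 RefSeq promoters hold it within 150 bases. *Camp* has 0 matches in the 150 bases before its RefSeq start, and it is not shown because its GENCODE gene covers that stretch. The interferon core is rarer, at 1.59% of promoters, and occurred 3 times before *Isg15*, where the matches overlap, 2 times before *Ifit1* and 1 time before *Ifit3*. A match of letters is a description and does not show that a factor was bound.

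The immature share of neutrophil barcodes was higher in the PEP-619WW library. It was 107 of 458 in PEP-WT (23.4%, interval 19.6 to 27.5%) and 197 of 449 in PEP-619WW (43.9%, 39.2 to 48.6%), a difference of 20.5 points (Newcombe interval 14.4 to 26.4). Of all barcodes of a library, immature neutrophils made up 0.722% in PEP-WT (0.592 to 0.872%) and 2.30% in PEP-619WW (1.99 to 2.64%). Mature neutrophils differed less, at 2.37% and 2.94% of all barcodes. With at least 200 UMIs of *S100a8* plus *S100a9* required, which leaves out low S100 barcodes of the mature class, the immature shares were 37.1% and 65.3%. There was no gap in granule UMIs at the limit of 10. At 8 or 9 granule UMIs, just outside, there were 3 PEP-WT and 8 PEP-619WW barcodes, and at 10 or 11, just inside, 4 and 9.

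**Figure D1:**
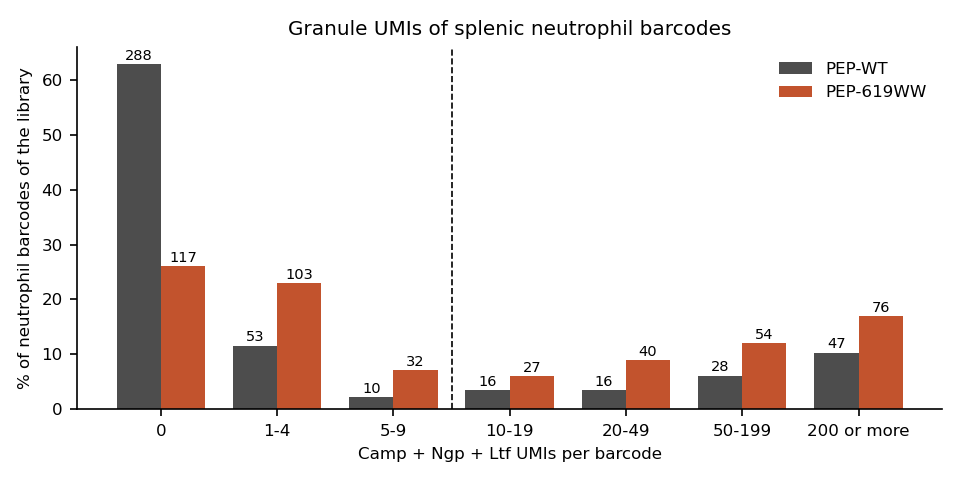
Percent of neutrophil barcodes (vertical axis) by the number of *Camp*, *Ngp* and *Ltf* UMIs in the barcode (horizontal axis), for PEP-WT (gray, 458 barcodes) and PEP-619WW (orange, 449 barcodes). Numbers above the bars are barcodes and the dashed line is the limit of 10 UMIs: 62.9% of PEP-WT but 26.1% of PEP-619WW barcodes held 0 granule UMIs, and 47 and 76 barcodes held 200 or more.

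The shift was not limited to the immature side of the limit. Barcodes with 1 to 9 granule UMIs were also more frequent in PEP-619WW: 22.9% of neutrophil barcodes held 1 to 4 and 7.13% held 5 to 9, against 11.6% and 2.18% in PEP-WT. Those of PEP-619WW had low S100 levels, with a median of 140 *S100a8* plus *S100a9* UMIs at 1 to 4 granule UMIs and 81 at 5 to 9, where PEP-WT had 374 and 654.5. The higher granule background of the PEP-619WW library given above runs along with this range and its part in it was not tested. Barcodes with 200 or more granule UMIs made up 10.3% of PEP-WT neutrophils and 16.9% of those of PEP-619WW.

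Compared with mature neutrophils, immature barcodes held more RNA of granule proteins and stefins and less of the inflammatory cytokine list and interferon-stimulated genes. Summed UMIs per 1000000 were compared within each library over 2914 genes with at least 50 UMIs per library in the pair of classes. At least 2-fold higher in immature barcodes in both libraries were 100 genes (3.43%), and 381 (13.1%) were at least 2-fold lower. The granule and S100 genes took up much of the immature total (*S100a8* plus *S100a9* alone 27.3% in PEP-WT and 23.7% in PEP-619WW), and the median log2 ratio of all genes was -0.50 in PEP-WT and -0.43 in PEP-619WW. With median-of-ratios scaling instead, which centres this shift, 198 genes were higher and 170 lower, so the split in favor of lower genes depends on the scaling. The rule used these barcodes, and the values that follow are descriptions of the cells it chose, to be read against those medians.

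Of 14 measured secondary granule genes 9 were at least 2-fold higher in immature barcodes and 0 lower, with a median log2 ratio of 2.82 in PEP-WT and 2.51 in PEP-619WW. *Camp*, *Ngp* and *Ltf* are among them by the rule, and without them 6 of 11 were higher, with medians of 1.47 and 1.53. *Lcn2*, not used by the rule, stood at 18147 CPM in PEP-WT and 16642 CPM in PEP-619WW immature barcodes, against 1651 and 2529.7 CPM in mature ones. *Cd177*, a surface protein of neutrophils, had 863 and 919 CPM against 53.3 and 74.0 CPM. *Mmp8*, neutrophil collagenase, had 1541 and 1868 CPM against 341 and 379 CPM. *Chil3* and *Pglyrp1*, a chitinase-like protein and a peptidoglycan recognition protein, were also higher but below 2-fold in both libraries. Of tertiary granule and secretory genes 2 of 8 passed 2-fold, *Mmp9* (gelatinase B; 1738 and 2415 CPM against 704 and 1013 CPM) and *Mmp25*, a membrane-bound protease. The primary granule list had 2 measured genes and both were lower, among them *Srgn*, the proteoglycan core on which granule proteins are packed, at 1096 and 1179 CPM against 3848 and 3149 CPM. The rule kept *Mpo*, *Elane* and *Prtn3* low in both classes, so the list could not compare them. In B cells the primary granule sum was 917 CPM in PEP-WT and 930 CPM in PEP-619WW. The part of other cells in the mature class was not tested.

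Stefins, the cysteine protease inhibitors of the mouse *Stfa* cluster on chromosome 16, were higher for 4 of 6 measured members, with medians of 2.31 and 2.69. *BC100530* had 970.1 CPM in PEP-WT and 1500.5 CPM in PEP-619WW immature barcodes, against 97.0 and 57.0 CPM in mature ones. *Stfa2l1* differed little between the classes and *Cstb*, cystatin B, which lies on another chromosome, was lower, at 52.7 and 62.6 CPM against 131 and 137 CPM. The *Stfa* genes are close copies of each other, so the division of reads among them is uncertain.

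**Figure D2:**
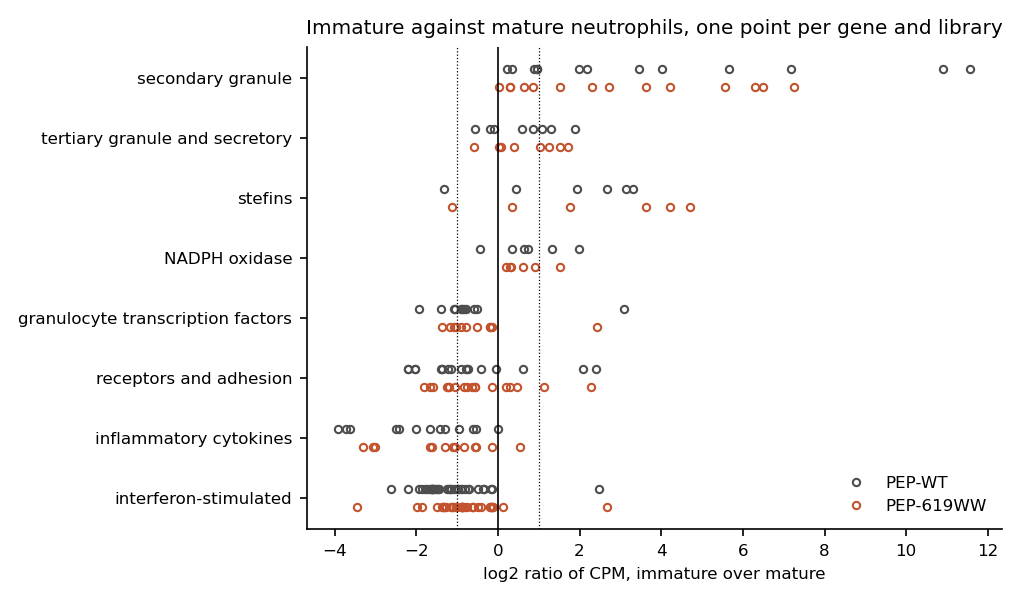
Log2 ratio of CPM in immature over mature neutrophils (horizontal axis), with 1 circle per measured gene, for PEP-WT (gray) and PEP-619WW (orange), by gene list (vertical axis). Dotted lines mark 2-fold. Of 14 secondary granule genes, 3 of which the rule used, 13 lie to the right of 0 in PEP-WT and 14 in PEP-619WW, and inflammatory cytokine and interferon-stimulated genes lie mostly to the left, with *Ifitm6* alone past 2-fold on the right among the latter.

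Of 11 measured transcription factors 1 was at least 2-fold higher in immature barcodes and 3 were lower, against 3.43% and 13.1% of all genes. The higher one was *Cebpe*, at 371 CPM in PEP-WT and 314 CPM in PEP-619WW against 43.7 and 58.6 CPM. *Cebpb*, a C/EBP factor of later and activated granulocytes, was lower (604 and 739 CPM against 1594 and 1676 CPM), as were *Junb* and *Klf2*. Receptors followed a mixed pattern, with 2 of 18 higher and 7 lower. *Ly6g* had 796 and 704 CPM against 187 and 321 CPM, and *Ltb4r1*, the leukotriene B4 receptor, 389 and 414 CPM against 73.6 and 84.8 CPM. *Csf3r*, the receptor for G-CSF, was lower, with 239 and 228 CPM against 1106 and 806 CPM. *Cxcr2*, the chemokine receptor that draws neutrophils out of the marrow, had 350.4 and 336 CPM against 770.0 and 524 CPM, past 2-fold in PEP-WT only.

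The inflammatory cytokine list was low in immature barcodes, with 7 of 13 measured genes at least 2-fold lower and 0 higher. Its medians were -1.67 in PEP-WT and -1.10 in PEP-619WW. The list also holds *Nfkbia*, *Tnfaip3*, *Ptgs2*, *Il1r2* and *G0s2*, which do not encode cytokines, so these counts are not of cytokine genes alone. *Il1b*, which encodes interleukin-1 beta, had 581 CPM in PEP-WT and 601 CPM in PEP-619WW against 7189.9 and 5047 CPM in mature barcodes. *Cxcl2*, a neutrophil attracting chemokine, had 448 and 839 CPM against 1786 and 2559 CPM. Interferon-stimulated genes were lower for 13 of 35 measured members, with medians of -1.20 and -0.88, and *Ifitm6* was the exception, at 2651 and 3149 CPM against 473 and 495 CPM. *S100a4* had 30.4 and 44.2 CPM in immature against 520.4 and 599.7 CPM in mature barcodes. Monocytes and T cells also express this gene. Their markers were higher in the mature class as given above, and the part of such cells was not tested.

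Genes outside the lists with at least 100 UMIs per library in both classes together were ranked by their smaller ratio in the libraries. Those that led immature barcodes were *Serpinb1a*, an inhibitor of elastase and other granule proteases (557 CPM in PEP-WT and 403 CPM in PEP-619WW, against 14.9 and 9.25 CPM), and *Itgb2l*, a beta integrin-like gene (219 and 276 CPM against 4.27 and 7.71 CPM). *Adpgk*, ADP-dependent glucokinase, *Zmpste24*, the protease that processes prelamin A, and *Lta4h*, the enzyme that makes leukotriene B4, came next. *Aldh2*, *Ceacam10*, *Syne1*, *Mgst2* and *Dstn* completed the first 10. In the other direction stood *Ms4a6c*, *Zeb2*, *Clec4d*, *Gadd45b*, *Pmaip1*, *Ctla2a*, *Gbp5*, *Ppp1r15a*, *Ccrl2* and *Lair1*. *Ms4a6c* and *Zeb2* are also strongly expressed in monocytes. *Ms4a6c* had 8.10 and 7.37 CPM in immature against 290.1 and 168 CPM in mature barcodes.

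The immature barcodes were not uniform. They were divided by granule UMIs into 10 to 49 (32 PEP-WT and 67 PEP-619WW barcodes, median 3122 and 3367 UMIs), 50 to under 200 (28 and 54, 3486.5 and 4720.5 UMIs) and 200 or more (47 and 76, 5892 and 7222 UMIs). These are ranges of a measured level and not cell types, and depth rises with them. Granulocyte progenitors, with at least 5 UMIs of *Mpo*, *Elane* and *Prtn3*, numbered 40 and 25, and in PEP-WT the basophil gene *Prss34* stood at 1424 CPM in that class.

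Within the immature class G2/M phase genes and *Mki67* were highest at the granule-rich end, and S phase genes did not follow this order in both libraries. G2/M phase genes summed to 2869.6 CPM in PEP-WT and 3118 CPM in PEP-619WW progenitors. At 200 or more granule UMIs they were at 1315 and 924 CPM, and at 50 to under 200 they were at 114 and 103 CPM. *Mki67* had 204 and 129 CPM at 200 or more granule UMIs, against 9.17 and 13.6 CPM at 10 to 49. The mature class was higher again than the 10 to 49 range, with G2/M phase sums of 418 and 331 CPM against 82.6 and 140 CPM. In mature barcodes *Mki67* had 34.1 and 47.8 CPM, and S phase genes summed to 322 and 338 CPM. The part of other cells of that class in these values was not tested. S phase genes summed to 405 and 414 CPM at 200 or more granule UMIs, 359.9 and 55.7 CPM at 50 to under 200, and 55.0 and 118 CPM at 10 to 49. With each barcode thinned to 1000 UMIs PEP-WT had 149, 444 and 129 CPM in these ranges and PEP-619WW 211, 37.0 and 83.3 CPM. *Cebpe* was also higher at the granule-rich end, with 552 and 401 CPM at the top of the range and 36.7 and 136 CPM at its foot, and *Fcnb* (ficolin B, a lectin of early secondary granules) was listed at 0 UMIs below 50 granule UMIs in both libraries.

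Genes of later neutrophils ran the other way. *Cxcr2* had 197 CPM in PEP-WT and 225 CPM in PEP-619WW at 200 or more granule UMIs, and 697 and 638 CPM at 10 to 49. *Il1b* had 219 and 81.5 CPM at the granule-rich end and 1367 and 2399.7 CPM at the granule-poor end, still below the mature class. *Retnlg*, resistin-like gamma, had 7197 and 17379.8 CPM, then 29863 and 44772 CPM, then 47155 and 57538 CPM, and it was lower again in mature barcodes, at 15781 and 24351 CPM. *Mmp9* did not follow the secondary granule sum. It was at 1257 and 2072 CPM at 200 or more and at 2387 and 3026 CPM at 50 to under 200 granule UMIs. *Ly6g* varied little within the immature class (648 to 853 CPM over the ranges and libraries).

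**Figure D3:**
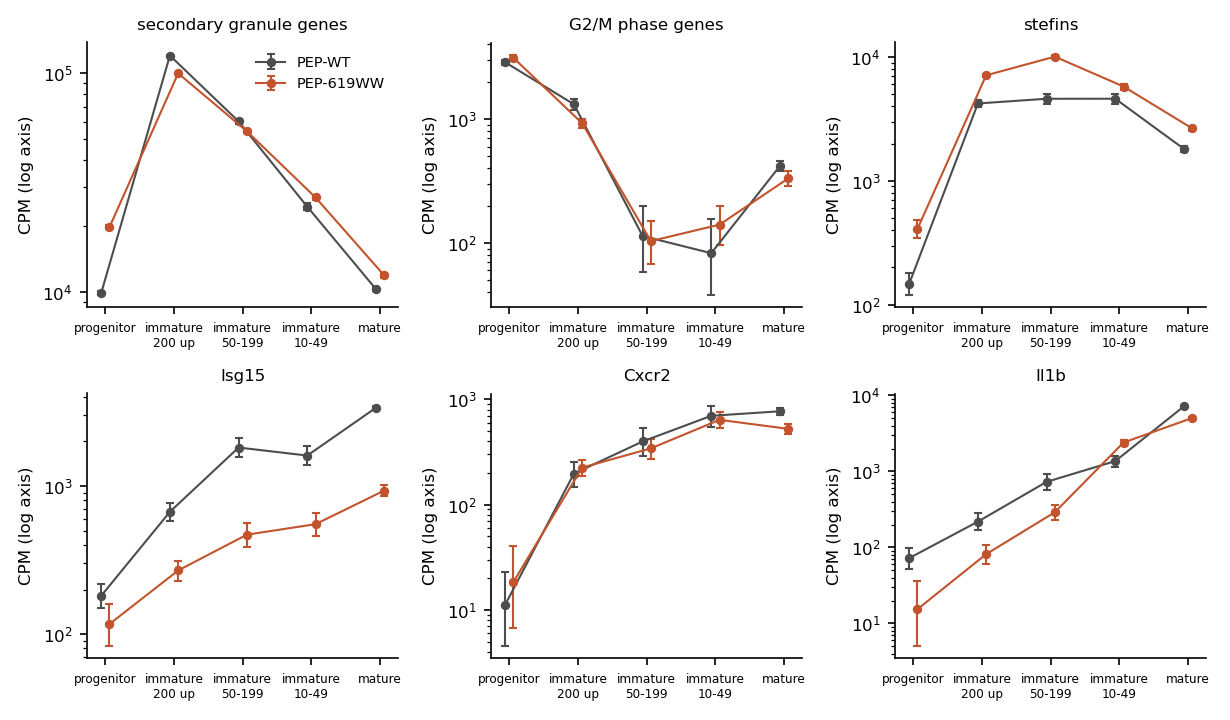
CPM (vertical axes, log scale) of list sums and genes in granulocyte progenitors, in immature barcodes with 200 or more, 50 to under 200 and 10 to 49 granule UMIs and in mature barcodes (horizontal axis), for PEP-WT (gray) and PEP-619WW (orange); bars are exact Poisson 95% intervals. Within the immature ranges G2/M phase genes are highest at 200 or more granule UMIs and *Cxcr2* and *Il1b* at 10 to 49, and *Isg15* is lower in PEP-619WW in each class drawn.

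The comparison of the genotypes describes differences between their libraries, and an effect of the *Ptpn22* allele was not tested. *Ptpn22* itself had 5 UMIs in PEP-WT and 26 in PEP-619WW immature barcodes (10.1 and 23.9 CPM), too few to compare. The edit changes codons and not the 3' end that the assay reads, so this level does not check the labels. Over 2871 genes with at least 50 UMIs in the libraries together, 71 genes were at least 2-fold higher in PEP-619WW immature neutrophils (2.47%) and 24 were at least 2-fold lower (0.836%). The median log2 ratio of all genes was 0.11, against which the ratios below are to be read, and with median-of-ratios scaling the counts were 47 and 45. The limit of 50 UMIs over both libraries favors genes high in PEP-619WW, whose class holds more UMIs. With genes kept by the mean CPM of the libraries instead, 56 of 2850 were higher and 34 lower, and among 9075 genes with any UMI in both libraries 844 were higher and 1169 lower. In mature neutrophils 90 of 3558 genes (2.53%) were higher and 86 (2.42%) lower. Mice were pooled, so differences among mice of a genotype cannot be told apart from the genotype.

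Interferon-stimulated genes were lower in PEP-619WW immature neutrophils. Of 34 measured, 7 were at least 2-fold lower, 0 were 2-fold higher and 3 lay above 0, with a median log2 ratio of -0.63. These 7 were among the 24 lower genes given above. *Isg15*, a ubiquitin-like modifier, had 1122 CPM (interval 1031 to 1219) in the PEP-WT library against 373 CPM (338 to 411) in PEP-619WW, a log2 ratio of -1.59 (-1.78 to -1.40). Its UMIs were spread over 95 of 107 and 133 of 197 barcodes. *Ifit1*, *Ifit2* and *Ifit3* encode proteins that bind viral RNA or its sensors. *Ifit1* had 348 and 136 CPM, *Ifit2* 148 and 63.6 CPM, and *Ifit3* 367 and 147 CPM. The others past 2-fold were *Slfn5* (286 and 113 CPM), *Herc6* (124 and 49.7 CPM) and *Usp18*, the protease that removes ISG15 (85.1 and 41.4 CPM).

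Other members differed less. *Ifitm3*, a restriction factor of virus entry, had 4126 and 3387 CPM. *Ifi27l2a* had 2584 and 1411 CPM. *Irf7*, the transcription factor that sustains interferon production, had 439 and 224 CPM. *Ifitm6*, *Ifitm1* and *Slfn1* were the members above 0, and *Ifitm6* had 2651 CPM in PEP-WT and 3149 CPM in PEP-619WW, a log2 ratio of 0.25 (0.16 to 0.34).

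Per barcode, the summed interferon-stimulated UMIs ranged from 37.4 to 564 per 10000 with a median of 179.6 in PEP-WT, and from 39.7 to 355 with a median of 145 in PEP-619WW. The ranges overlap, and every immature barcode of both libraries held UMIs of the list. *Isg15* was lower in PEP-619WW in each range of granule UMIs, with 669.9 against 269 CPM at 200 or more, 1818 against 469 CPM at 50 to under 200 and 1605 against 552 CPM at 10 to 49. The list as a whole differed less at the granule-rich end, with a log2 ratio of its sum of -0.13 (-0.19 to -0.08) at 200 or more and -0.65 (-0.72 to -0.59) at 10 to 49. The direction was shared with other cells of these libraries. In mature neutrophils *Isg15* had 3374 and 931 CPM and 16 of 37 members were at least 2-fold lower, and in B cells *Isg15* had 266 and 99.9 CPM. Of the 7 genes 2-fold lower in immature neutrophils 6 had a RefSeq promoter entry and 3 of these held the interferon core shown above, against 6 of 21 among the other measured members.

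**Figure D4:**
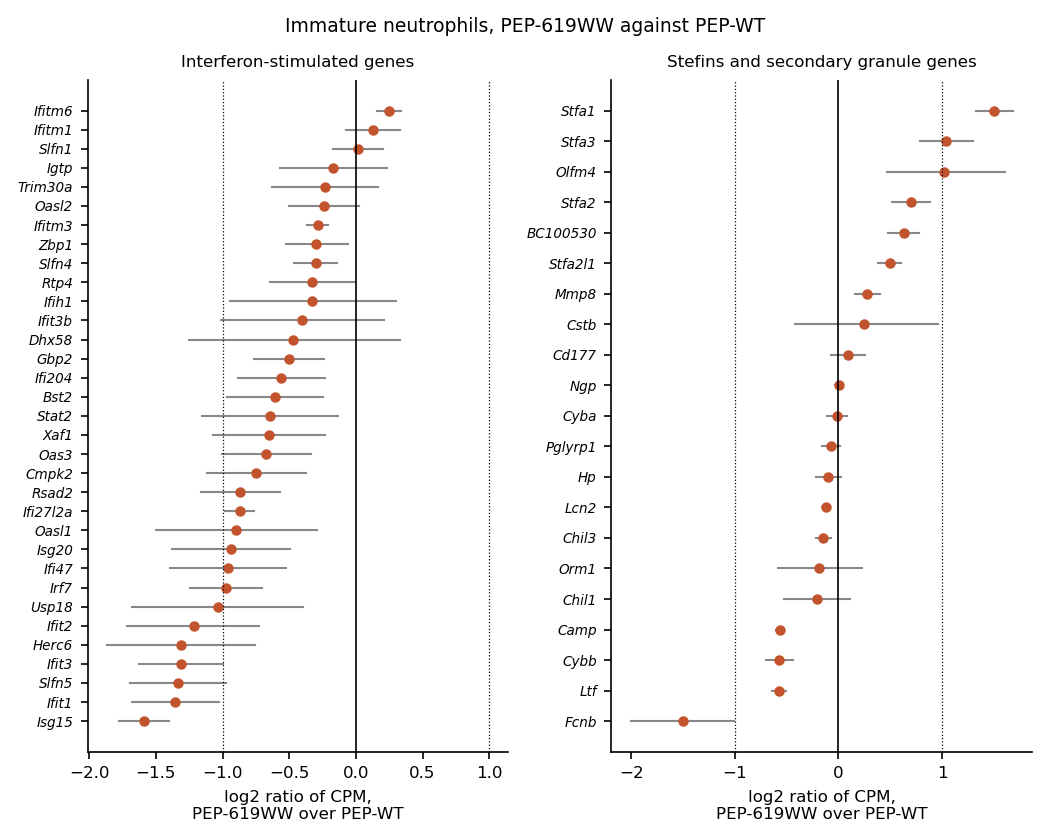
Log2 ratio of CPM in PEP-619WW over PEP-WT immature neutrophils (horizontal axis) for the measured interferon-stimulated genes (left, 1 gene not shown) and each stefin and secondary granule gene (right); bars are exact 95% intervals and dotted lines mark 2-fold. *Isg15* is lowest on the left at -1.59 and *Ifitm6* highest at 0.25, and on the right *Stfa1* is highest at 1.50 and *Fcnb* lowest at -1.50.

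Stefin RNA was higher in PEP-619WW, with 6 of 6 measured members above 0, 2 of them past 2-fold, and a median log2 ratio of 0.66. *Stfa1* had 619.8 CPM (552 to 693) in the PEP-WT library against 1758 CPM (1680.4 to 1839) in PEP-619WW, a log2 ratio of 1.50 (1.33 to 1.68). *Stfa3* had 308 and 633 CPM, *Stfa2* 652 and 1058 CPM, and *Stfa2l1* 1768 and 2494 CPM. The *Stfa1* UMIs came from 22 of 107 PEP-WT barcodes and 64 of 197 in PEP-619WW, and 1 PEP-WT barcode held 39.0% of the *BC100530* UMIs of its class. *Stfa1* was higher in PEP-619WW in all 3 ranges of granule UMIs, whereas *BC100530* was lower at 10 to 49 (789 and 421 CPM). In mature neutrophils *Stfa1* had 162 and 143 CPM, and *Stfa2* 73.6 and 309.9 CPM.

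Of 15 secondary granule genes 4 were above 0, with a median log2 ratio of -0.12. Their sum was 86391 CPM in PEP-WT and 74511 CPM in PEP-619WW (log2 ratio -0.21, -0.23 to -0.20), and without *Camp*, *Ngp* and *Ltf*, which the rule used, 35042 and 32530.2 CPM. The log2 ratio of the whole sum was 0.14 (0.07 to 0.21) at 10 to 49 granule UMIs, -0.15 (-0.19 to -0.10) at 50 to under 200 and -0.27 (-0.29 to -0.25) at 200 or more. Class and ranges are set by the sum of *Camp*, *Ngp* and *Ltf*, so within a range a higher level of 1 of them goes with lower levels of the others, and these values and those of the 3 genes are descriptions only. *Ngp* had 22502 CPM in PEP-WT and 22509.6 CPM in PEP-619WW, whereas *Camp* (22352 and 15105 CPM, log2 ratio -0.57) and *Ltf* (6495 and 4366 CPM, -0.57) were lower in PEP-619WW. The gene of the NADPH oxidase subunit *Cybb* had 1634 and 1099 CPM, and *Lcn2* 18147 and 16642 CPM, but 7293 and 8299 CPM at 10 to 49 granule UMIs. *Fcnb* was the 1 member 2-fold lower, with 162 and 57.1 CPM from 18 and 17 barcodes, and *Mmp8* was higher at 1541 and 1868 CPM. *Olfm4* was the 1 member past 2-fold upward, at 66.8 CPM (46.0 to 93.9) and 135 CPM (114 to 159), which rests on the 5 and 11 barcodes given above, 1 of which held 45.5% of the PEP-WT UMIs.

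Chromatin, tubulin and cell cycle lists varied with the range of granule UMIs. Over the class all 8 chromatin and tubulin genes measured were below 0 and 0 passed 2-fold, with a median log2 ratio of -0.46. Their sum was 5871 CPM in PEP-WT and 4161 CPM in PEP-619WW at 200 or more granule UMIs and 2567 and 2179 CPM at 50 to under 200, but 2174 and 2404 CPM at 10 to 49. *Hmgb2* had 2039.5 and 1694 CPM and the histone variant *H2afz* 735 and 511 CPM. The G2/M phase list had 1 of 6 measured genes above 0 and a log2 ratio of its sum of -0.45 (-0.64 to -0.26), but 0.77 (-0.34 to 2.02) at 10 to 49 granule UMIs. The S phase list had 1 of 2 above 0 and a log2 ratio of its sum of -0.23 (-0.52 to 0.06). The ratio was 0.03 (-0.29 to 0.37) at 200 or more granule UMIs and -2.69 (-3.69 to -1.78) at 50 to under 200, from 38 and 14 UMIs. At 10 to 49 it was 1.10 (-0.22 to 2.67), from 6 and 26 UMIs. *Top2a* had 138 and 76.5 CPM from 15 and 12 barcodes. Immature barcodes with at least 5 UMIs of division genes were 15 of 107 in PEP-WT (14.0%, 8.06 to 22.1%) and 14 of 197 in PEP-619WW (7.11%, 3.94 to 11.6%), and with each barcode thinned to 1000 UMIs 5.71% and 3.68%, with intervals that overlap. Mature neutrophils had 6.55% in PEP-WT and 7.94% in PEP-619WW by the same count, and 1.23% and 2.76% when thinned. B cells had 14.1% and 20.7% by the same count, and 6.8% and 6.4% of 1000 B cells of each library when thinned.

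The inflammatory cytokine list had 5 of 10 measured genes above 0 and a median log2 ratio of -0.07. Its sum was nevertheless higher in PEP-619WW, at 4816 and 6648 CPM (log2 ratio 0.46, 0.40 to 0.53). The sum includes the genes named above that do not encode cytokines. Among them *G0s2* held more UMIs than any other member of the list in both libraries. *G0s2* UMIs came from 85 and 167 barcodes. The higher sum is therefore no measure of cytokine genes alone, and a sum without *G0s2* was not tested. The sum was higher in each range of granule UMIs, with 9110 and 13977 CPM at 10 to 49, 6384 and 6936 CPM at 50 to under 200 and 2547 and 3890 CPM at 200 or more. *Ccl6* had 587 CPM in PEP-WT and 1117 CPM in PEP-619WW, and it was higher in PEP-619WW in each range of granule UMIs. *Cxcl2* had 448 and 839 CPM, but 1118 and 696 CPM at 50 to under 200 granule UMIs. *Il1b* had 581 and 601 CPM over the class (log2 ratio 0.05, -0.15 to 0.25), and the direction differed between ranges: 0.81 (0.55 to 1.08) at 10 to 49 granule UMIs, -1.33 (-1.81 to -0.85) at 50 to under 200 and -1.42 (-1.99 to -0.86) at 200 or more. *Tnf* passed 2-fold upward with 14 and 65 UMIs, and *Ptgs2*, cyclooxygenase 2, downward with 32 and 32 UMIs. A single PEP-619WW barcode held 23.1% of the *Tnf* UMIs of its class, and a single PEP-WT barcode 37.5% of the *Ptgs2* UMIs. *Ptgs2* turned upward when at least 20 granule UMIs were required. Of 17 receptors 0 passed 2-fold and 13 were above 0, with a median log2 ratio of 0.16, near the 0.11 of all genes. Among those above 0 were *Cd33* (201 and 333 CPM) and *Cxcr4*, the receptor that retains neutrophils in the marrow (140 and 227 CPM). *Cebpe* had 371 and 314 CPM, and 0 of 11 transcription factors passed 2-fold. Ribosomal protein genes were above 0 for 76 of 82 over the class, with a median log2 ratio of 0.28, but the direction of their sum varied with the range. It was 47124 CPM in PEP-WT and 67106 CPM in PEP-619WW at 200 or more granule UMIs. At 50 to under 200 it was 50008 and 52865 CPM, and at 10 to 49 it was lower in PEP-619WW, at 59063 and 52110 CPM.

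Genes outside the lists were ranked among those with at least 100 UMIs, leaving out immunoglobulin genes. The highest ratio was that of *Cirbp*, the cold-inducible RNA binding protein. It had 22.3 CPM (11.1 to 39.9) in the PEP-WT library against 105 CPM (86.6 to 126) in PEP-619WW, from 11 and 78 barcodes. *Cd14*, the coreceptor for lipopolysaccharide, had 129.6 CPM (99.8 to 166) and 339.9 CPM (306 to 376). *Hilpda*, a lipid droplet protein induced by hypoxia, had 26.3 and 82.9 CPM, and *Vmp1*, an autophagy protein, 42.5 and 119 CPM. *Zfp36l1*, *Rnf44*, *Tmem71*, *Crispld2*, *Man2a1* and *Prok2* were the others named by the rule. *Cirbp*, *Cd14*, *Hilpda* and *Vmp1* were also higher in PEP-619WW mature neutrophils, *Cd14* with 423 and 780.0 CPM.

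Among genes outside the lists with at least 100 UMIs, the lowest in PEP-619WW were *Zmpste24* (217 and 93.0 CPM) and *Pnp*, purine nucleoside phosphorylase (142 and 69.1 CPM), both past 2-fold. Next among these genes, below 2-fold, came *Rnaseh2c* (196 and 98.6 CPM) and *Socs1*, the inhibitor of cytokine receptor signaling that interferons induce (174 and 88.4 CPM). *Cks2*, *Clec2d*, *Rad21*, *Lmo2*, *Abhd5* and *Aldh3b1* followed. *Zmpste24* was also among the genes that marked immature against mature barcodes.

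RNA of other cells differed with the genotype. Of 9 measured immunoglobulin genes 8 were at least 2-fold higher in PEP-619WW immature neutrophils. Immunoglobulin RNA was 0.129% of the summed UMIs in PEP-WT and 0.760% in PEP-619WW. The median per barcode differed less, at 0.122% and 0.173%, so part of the difference in the sums came from barcodes rich in this RNA. The plasma cell markers *Jchain* (60.8 and 189.7 CPM) and *Mzb1* (20.3 and 103 CPM) were higher as well, and 1 PEP-619WW barcode held 59.2% of the *Jchain* UMIs. Erythroid markers summed to 4069 and 4109 CPM, of which 1 barcode held 71.2% in PEP-WT and 1 barcode 98.8% in PEP-619WW. An erythroid UMI was found in 46.7% of PEP-WT and 21.3% of PEP-619WW immature barcodes, and in mature neutrophils the sums were 5733 and 709 CPM. *Car2*, an erythroid marker, was 2.03 CPM in PEP-WT and 67.2 CPM in PEP-619WW, with 95.9% of the latter in 1 barcode. B cell markers gave 24.3 and 37.8 CPM, T cell markers 122 and 38.7 CPM and NK cell markers 0 and 5.53 CPM. Without barcodes that held a UMI of a B cell, T cell, plasma cell, NK cell or monocyte marker, which left 62 PEP-WT and 81 PEP-619WW immature barcodes, 26 of 1375 genes measured were at least 2-fold higher (1.89%) and 16 lower (1.16%), and the median log2 ratio was -0.58 over the interferon-stimulated genes and 0.94 over the stefins.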

How the data were processed

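By the study's methods, droplet 3' gene expression libraries were made from sorted splenic CD45+ cells, 1 per genotype. For the run used here this holds only if both runs came from the same material. The authors deposited raw UMI count matrices, made with Cell Ranger (6.0.0 is the version in the submitters' processing notes) on mm10, with 32285 genes, of which 32158 carry a symbol. The sample labels name other tissues, whereas the protocol describes spleen. Run 1 (14821 PEP-WT and 8576 PEP-619WW barcodes) was analysed because the rule found its members there, with the contents of both runs known. Run 2 held 9539 and 11029 barcodes, which are the estimated cell numbers in the study's methods, and 0 immature neutrophils. It was an alternative, and no source states how the runs are related. No doublet caller was run, and doublets were limited only by the negative genes of the rule and by an alternative without barcodes that hold markers of other cells.

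UMIs were summed over the barcodes of a class and library and scaled to 1000000 (CPM). Intervals were exact Clopper-Pearson for shares, exact Poisson for CPM and exact conditional binomial for ratios, and Newcombe's for differences of shares, at 95%, and cover counting error only. Genes needed 50 UMIs in the pair compared, and 2-fold was the threshold. The stage comparison in other settings is given as a percent of the genes tested. Calculations were tested on simulated data. Tools were R 4.3.3 and Python 3.11.15 with SciPy 1.17.1, pandas 2.3.3 and NumPy 2.4.6, and edgeR 4.0.16 and DESeq2 1.42.0 gave scaling factors only. Total UMIs per immature class were 493744 in PEP-WT and 1085670 in PEP-619WW. Named genes were members of the gene lists, and the 10 genes with the largest ratio in each direction among those outside the lists with at least 100 UMIs. *Retnlg* belongs to neither set and was picked in addition for the ranges of granule UMIs. The members and lists were chosen with earlier results of these data known. Of 39 interferon-stimulated genes listed 37 were matched. Of these, 1 is not reported here by itself and counts only in the list. Promoter sequences are from RefSeq (GRCm38.p6), where 5 of 5 genes shown were matched. Alternatives changed the limits of the rule, the scaling, the gene filter, the depth by thinning and the run. Requiring 200 S100 UMIs, leaving out barcodes rich in immunoglobulin or hemoglobin RNA, removing the rule's genes from the total, keeping genes by their mean CPM and keeping only barcodes of 200 granule UMIs were chosen after seeing the data.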

Additional observations from a re-analysis of the deposited data

Results flagged for a closer look

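In the second run, which no comparison above uses, 464 PEP-WT and 764 PEP-619WW barcodes passed the rule for mature neutrophils while 0 passed that for immature neutrophils. The exact upper limits of an immature share there are 0.792% in PEP-WT and 0.482% in PEP-619WW, and 3 counts of the total are 0.647% and 0.393%. The cell numbers in the study's methods are those of this second run. That run also held 249 PEP-WT and 25 PEP-619WW barcodes with UMIs of at least 3 melanocyte genes, which the first run lacked. *Car2*, carbonic anhydrase 2 of red cell precursors, had a log2 ratio of PEP-619WW over PEP-WT of 5.05 in immature and -2.18 in mature neutrophils. This difference between the classes was not tested, and 1 PEP-619WW barcode held 95.9% of the immature UMIs.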

How the results depend on the processing

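The immature share of neutrophil barcodes stayed higher in PEP-619WW under every limit tried in the first run. In PEP-619WW it was 51.0% with at least 5 granule UMIs, 37.9% with at least 20, 50.8% with at least 50 S100 UMIs and 50.3% without barcodes of 2% or more immunoglobulin and hemoglobin UMIs, where the difference was 27.2 points. With at least 200 S100 UMIs it was 37.1% in PEP-WT and 65.3% in PEP-619WW, a difference of 28.2 points. In run 2 the shares and the difference were 0, so no gene comparison could be made there. Genes at least 2-fold higher in immature than mature barcodes, as a percent of those tested, were 5.23% without barcodes with markers of other cells, 6.83% with trimmed mean of M values (TMM) factors, 6.79% with median-of-ratios factors, 6.04% with the rule's genes removed from the total, and 3.26%, 4.66% and 2.95% with at least 20, at least 200 and any number of UMIs per gene (168, 38 and 255 genes). Lower genes were 15.4%, 5.97%, 5.83%, 6.86%, 13.7%, 14.7% and 14.5% in the same order, and 10.4% with at least 200 S100 UMIs. Between genotypes, genes higher in PEP-619WW numbered 26 without barcodes with markers of other cells, 47 with median-of-ratios, and 286, 11 and 844 under the gene filters of 20, 200 and none (5129, 813 and 9075 genes). Lower genes numbered 41 with TMM, 45 with median-of-ratios, 43 as a mean over barcodes, 41 without the rule's genes, and 129, 5 and 1169 under those filters. Ratios turned for *Car2* (-0.61) and *S100a10* (0.39) without barcodes with markers of other cells, for *Jchain* (-0.020) without barcodes rich in immunoglobulin or hemoglobin, for *Ptgs2* with at least 20 granule UMIs (0.33) or 50 per 10000 (0.35), and for *Ccrl2* (0.24) and *S100a10* (2.03) at 200 or more granule UMIs. The causes were not tested. Over the alternatives, the median log2 ratio lay from -0.74 to -0.40 for interferon-stimulated genes, from 0.48 to 0.94 for stefins and from -0.24 to -0.05 for secondary granule genes. Thinned to 1000 UMIs, barcodes with 200 or more granule UMIs had 122319 CPM of secondary granule genes in PEP-WT and 99934 CPM in PEP-619WW. Interferon-stimulated genes had 14043 and 13421 CPM. G2/M genes had 1298 and 592 CPM, from 61 and 45 UMIs of a single random draw, against 1315 and 924 CPM unthinned. The libraries lay further apart in that draw, and the spread over draws was not tested. The cycling shares of all immature barcodes were 5.71% and 3.68% when thinned, against 14.0% and 7.11% unthinned. No paired analysis was possible because each genotype has 1 library. Depth limits genes under 50 UMIs, which were not compared.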
